A study of Mus musculus with 6 samples.

Results

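N9 microglia are an immortalized line from mouse brain, and the genes described here are 10 of the tumor necrosis factor (TNF) superfamily that were read in these cells with and without lipopolysaccharide (LPS), a cell wall component of gram-negative bacteria. The members are 6 ligands, Tnf, Tnfsf9, Tnfsf10, Tnfsf12, Tnfsf13 and Tnfsf13b, and 4 receptors, Tnfrsf1a, Tnfrsf1b, Tnfrsf12a and Ltbr. They were taken by gene symbol, and all 10 were found among the 54532 genes of the deposited count table. RNA-seq libraries came from 3 samples of unstimulated control cells and 3 samples given LPS at 1 µg/ml for 6 h, all in the same serum-containing medium. The labels do not say whether the samples of a group were separate cultures, so p-values measure the spread between these samples, which may be technical. N9 is a single line in culture and not tissue microglia. The question was how LPS changed transcript levels.

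TNF superfamily ligands are membrane or secreted proteins that bind receptors of the TNF receptor superfamily as trimers. Some of these receptors carry a death domain and recruit TRADD, FADD and caspases, and others recruit TRAF adaptors directly, which lead to NF-κB and MAP kinase signaling. In microglia and macrophages, TNF is a classical early product of Toll-like receptor stimulation and acts back on the cells that release it as well as on their neighbors. TNFR1, the product of Tnfrsf1a, is widely expressed, whereas TNFR2, the product of Tnfrsf1b, is found mainly on immune and endothelial cells and responds best to membrane-bound TNF.

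The promoter windows of the members that were called higher with LPS are given to show what the starts of these genes look like. RefSeq on GRCm38.p6 gave a window of 300 bases, 250 before and 50 from the start site onward, for 8 of the 10 members, and Tnfsf13b has 2 such starts. Tnfsf13b is shown with its start that holds matches to more of the motifs, and its other start is not printed. The 4 windows are given 5′ to 3′ on the strand of the gene, and capitals mark matches to the motifs named after them.

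Tnf, chr17:35201958-35202257, minus strand: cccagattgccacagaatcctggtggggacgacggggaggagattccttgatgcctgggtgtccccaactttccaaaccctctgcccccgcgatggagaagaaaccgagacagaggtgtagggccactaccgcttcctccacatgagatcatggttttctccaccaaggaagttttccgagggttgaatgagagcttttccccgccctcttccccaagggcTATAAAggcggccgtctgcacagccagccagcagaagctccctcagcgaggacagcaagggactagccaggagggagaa

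Tnfrsf1b, chr4:145246821-145247120, minus strand: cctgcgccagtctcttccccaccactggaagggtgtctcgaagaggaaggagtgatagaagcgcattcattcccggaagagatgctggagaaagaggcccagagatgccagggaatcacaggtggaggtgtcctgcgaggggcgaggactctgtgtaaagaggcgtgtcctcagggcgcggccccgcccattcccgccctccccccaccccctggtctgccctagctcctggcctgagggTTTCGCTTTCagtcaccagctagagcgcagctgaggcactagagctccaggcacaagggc

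Tnfsf10, chr3:27316827-27317126, plus strand: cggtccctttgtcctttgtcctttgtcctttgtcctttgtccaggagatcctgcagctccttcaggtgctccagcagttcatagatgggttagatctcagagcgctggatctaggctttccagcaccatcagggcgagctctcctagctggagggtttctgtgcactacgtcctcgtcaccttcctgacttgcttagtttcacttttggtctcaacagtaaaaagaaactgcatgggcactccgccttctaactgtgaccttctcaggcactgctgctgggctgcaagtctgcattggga

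Tnfsf13b, chr8:10006383-10006682, plus strand: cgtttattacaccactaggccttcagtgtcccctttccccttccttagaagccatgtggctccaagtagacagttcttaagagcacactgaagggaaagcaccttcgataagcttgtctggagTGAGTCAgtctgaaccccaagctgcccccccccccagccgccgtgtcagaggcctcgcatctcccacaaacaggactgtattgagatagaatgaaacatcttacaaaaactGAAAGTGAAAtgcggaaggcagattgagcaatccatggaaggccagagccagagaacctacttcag

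The motifs searched on both strands were TATAAA, the paired core of an interferon-stimulated response element (GAAA, repeated in the same direction after any 2 bases), TGANTCA (bound by AP-1) and the κB consensus of NF-κB. Tnf held TATAAA from position -29, a match found in 13.6% of the 32544 promoter windows of the table. The paired core was matched in Tnfrsf1b from position -10, on the opposite strand, and in the second start of Tnfsf13b from position -16, and 3.45% of all windows hold it. TGANTCA was matched from position -127 of that Tnfsf13b window, a site that also lies in the window of its other start, and from position -133 of Tnfsf13, and in 7.79% of all windows. The κB consensus was in 8.49% of all windows and in none of the windows of these members, and Tnfsf10 held none of the 4 motifs. These matches describe letters within the window only.

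The libraries held between 16363767 and 17956772 counts in all, so that 3 counts corresponded to between 0.161 and 0.19 CPM, counts scaled to the TMM-normalized library size. Counting limits cover counting error only. Microglial identity was read from 13 markers. Csf1r, Cd68, Tyrobp and Cd14 had 3033 counts or more in every library, whereas Aif1 was at 4 to 9 counts and P2ry12 at 3 to 6 counts, so that these defining markers were nearly absent from the line. The summed level of the microglial list was 3769 to 3799 CPM in control and 4828 to 5017 CPM in LPS libraries. Of the lists for other cell types, the 4 T cell markers were at or under 3 counts in every library, as were 3 of the 4 B cell markers, the exception being Pax5 at 0 in control and 10 to 18 counts with LPS. The 4 endothelial markers summed to 0.227 to 0.484 CPM in control and 0.791 to 1.16 CPM in LPS libraries. The 4 neuronal markers summed to 3.79 to 4.59 CPM in control and 11.2 to 14.5 CPM in LPS libraries, nearly all of it Tubb3, with Rbfox3 at or under 3 counts. The astrocyte list, mostly Aldh1l1, summed to 27.9 to 29.9 CPM in control and 21.5 to 25.2 CPM in LPS libraries, and the oligodendrocyte list, mostly Mbp, to 33.4 to 39.95 CPM and 28.2 to 29.5 CPM. The libraries differed in 2 other lists. The 6 hepatocyte markers summed to 0.175, 12.5 and 22.2 CPM in control replicates 1, 2 and 3 and to at most 0.547 CPM with LPS. The 4 fibroblast markers summed to 8.11 and 6.23 CPM in control replicates 1 and 3 and 5.38 CPM in LPS replicate 1, against 0.396 to 0.792 CPM in the other libraries. The part of these other cell markers in the results was not tested, and values without these libraries are given for each member called higher and for the members whose direction they change. Omitting the libraries with hepatocyte transcripts left control replicate 1, at 8.11 CPM of the fibroblast markers. Omitting those with fibroblast transcripts left control replicate 2, at 12.5 CPM of the hepatocyte markers. Neither fit was thus free of both. In such bulk samples, fewer cells of a type and less RNA per cell cannot be told apart.

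LPS was followed by higher levels of 4 of the 10 members. Tnf rose 14.7-fold, Tnfrsf1b 8.32-fold and Tnfsf10 24.96-fold, and Tnfsf13b rose 1.196-fold. Tnfrsf1a, Tnfrsf12a and Ltbr, the other receptors, were not called, and neither were Tnfsf9 and Tnfsf13. Tnfsf12 was below the filter on low counts. These calls are edgeR quasi-likelihood tests with Benjamini-Hochberg adjustment over 12296 genes, at an adjusted p under 0.05. Of all tested genes, 18.7% were called higher and 15.7% lower, against 4 and 0 of the 9 tested members. With upper quartile normalization the split was 1845 higher and 2497 lower, and with total counts alone 1520 and 3342, in place of 2294 and 1927. Tnf, Tnfsf10 and Tnfrsf1b were also DEG, with a log2 fold change over 1.5, as were 2.4% of tested genes in the same direction. No member was called lower, none was lower at an unadjusted p under 0.05 by edgeR, and DESeq2 also called 0 lower and 4 higher. With total counts alone as the scaling, Tnfsf9 was called lower and Tnfsf13b lost its call, which left 3 members higher. Tnfsf13b also lost its call without the libraries with hepatocyte transcripts and without those with fibroblast transcripts. Each of these omissions left 1 control library, and fewer of all tested genes were then called. The median log2 fold change was 0.12 over the 9 tested members and 0.004 over all tested genes. Tnfsf10 passed the filter only through its LPS libraries, where it was high, so that the counts of tested members are not evidence about the family.

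**Figure D1:**
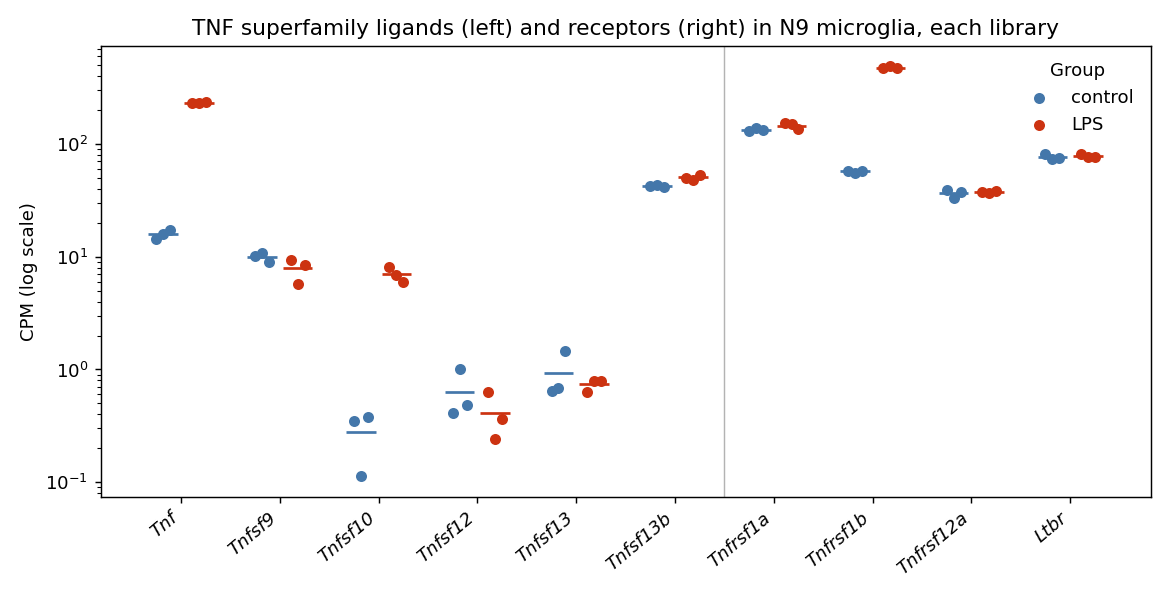
Level of each of the 10 genes in each library, in CPM on a log scale; points are the 3 control and 3 LPS libraries and lines are group means. Tnf, Tnfsf10, Tnfsf13b and Tnfrsf1b have all 3 LPS points above the control points, and the other members overlap between groups.

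Tnf (ENSMUSG00000024401) lies at chr17:35199381-35202007 of the build named mm10 in the labels, on the minus strand, and encodes the cytokine TNF itself. Its level was 14.3, 15.8 and 17.3 CPM in control cells and 230, 230 and 237 CPM with LPS, values being given throughout in the order of replicates 1, 2 and 3. The control libraries already held 245, 279 and 322 counts, so that Tnf was transcribed without LPS. The groups were far apart, and the LPS libraries differed little among themselves. The mean rose from 15.8 ± 1.51 to 232 ± 4.35 CPM (SD, n = 3), and its log2 ratio was 3.88 (SE 0.06, adjusted p = 1.6e-15 in edgeR). It ranked 60 of 12296 tested genes by log2 fold change. Without both control libraries with hepatocyte transcripts it was 4.02, and without the 3 libraries with fibroblast transcripts it was 3.88. The neighboring genes Lta and Ltb, which encode lymphotoxin α and β, lie 1157 and 3060 bases from Tnf. Lta had 3, 9 and 14 counts in control and 4, 11 and 8 counts in LPS libraries, and Ltb 0, 4 and 2 against 1, 2 and 4. Neither passed the filter, and their groups overlapped.

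The tested genes with levels most like those of Tnf were sought by the Euclidean distance of log2(FPKM + 0.1) over the 6 libraries, where FPKM is CPM per kilobase of gene length. The nearest were Ifi202b at a distance of 0.924, Tnfrsf1b at 1.17, Oasl1 at 1.45, Saa3 at 2.24 and Tor3a at 2.43. Tnfrsf1b, which encodes a receptor for Tnf, was thus the second nearest of all tested genes. This distance weighs the level of a gene as well as its change. In the order given, the log2 fold changes were 3.71, 3.06, 4.45, 2.51 and 2.33, against 3.88 for Tnf. Shared regulation was not tested. Ifi202b went from a mean of 8.17 to 107 FPKM, and Tnf from 9.64 to 142 FPKM.

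Tnfrsf1b (ENSMUSG00000028599) lies at chr4:145213463-145246870 on the minus strand and encodes TNFR2. Its level was 57.9, 55.7 and 58.0 CPM in the control libraries and 468, 488 and 471 CPM in the LPS libraries. The groups were separated by a wide margin. The mean rose from 57.2 ± 1.32 to 476 ± 10.9 CPM (SD, n = 3), or 3.06 in log2 units (SE 0.05, adjusted p = 1.0e-15 in edgeR). Omitting any single library kept the change between 3.03 and 3.07, and it was 3.04 and 3.09 without the libraries with hepatocyte and with fibroblast transcripts. Tnfrsf8, which encodes CD30 and lies 20266 bases from Tnfrsf1b, is described with the rest of the family.

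Tnfrsf1a (ENSMUSG00000030341), at chr6:125349362-125362484 on the plus strand, encodes TNFR1, the receptor with a death domain. Its level was 130, 138 and 134 CPM in control and 153, 149 and 136 CPM in LPS libraries. LPS replicate 3 lay below control replicate 2, so that the groups overlapped. The log2 fold change was 0.12 (95% confidence interval 0.01 to 0.23, edgeR adjusted p = 0.0842), and Tnfrsf1a was not called. Without LPS replicate 3 it was called, at 0.17 (edgeR adjusted p = 0.024). Omitting single libraries gave values from 0.088 to 0.17. It was 0.073 with upper quartile normalization, 0.023 with total counts alone (edgeR adjusted p = 0.754) and 0.036 without the libraries with fibroblast transcripts, and it was not called in these fits.

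Set against each other within a library and per base of gene length, the receptors of TNF stood in opposite order in the groups. The ratio of Tnfrsf1b to Tnfrsf1a was 0.302, 0.274 and 0.293 without LPS, and 2.08, 2.22 and 2.35 with it. On the log2 scale the ratio was -1.79 ± 0.07 in control and 1.15 ± 0.09 with LPS (SD, n = 3), a difference of 2.94. The two-sided exact permutation test gave p = 0.1, the smallest p that 3 libraries against 3 allow. Leaving out each library in turn gave differences from 2.89 to 2.98. The level of Tnf relative to both receptors together was 0.134, 0.142 and 0.157 in control and 0.773, 0.757 and 0.825 in LPS libraries. This ratio differed by 2.45 on the log2 scale (two-sided exact permutation test, p = 0.1), with no overlap between groups.

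**Figure D2:**
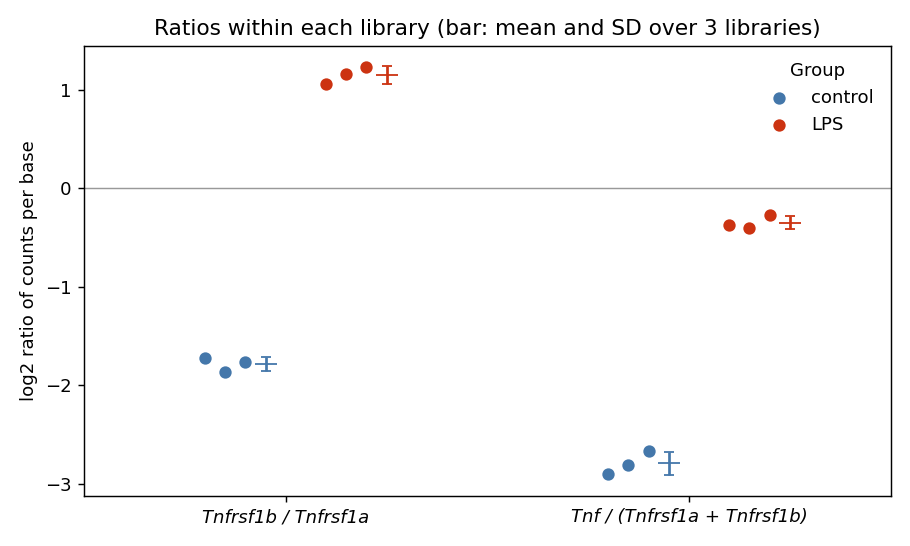
The log2 ratio of counts per base of Tnfrsf1b to Tnfrsf1a, and of Tnf to both receptors summed, in each library, with mean and SD of the 3 libraries of a group. The ratio of the receptors lies below 0 in every control library and above 0 in every LPS library, and that of Tnf to its receptors stays below 0 in all.

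Tnfsf10 (ENSMUSG00000039304), at chr3:27317028-27342427 on the plus strand, encodes TRAIL, a ligand that can trigger apoptosis through death receptors and that is also induced by interferons. Control cells gave 6, 2 and 7 counts, and LPS cells 127, 114 and 98. In CPM this was 0.35, 0.113 and 0.376 against 8.04, 6.95 and 5.96. The gene was near the counting limit in control, and all LPS libraries were far above it. The rise was 4.6 on the log2 scale (SE 0.31, adjusted p = 2.2e-08 in edgeR) and its size rests on 15 control counts. With a prior count of 2 it was 4.16. It was 4.29 without the libraries with hepatocyte transcripts and 5.73 without those with fibroblast transcripts, where a single control library with 2 counts was left. Per length it still stood low, at 1.33 ± 0.198 FPKM with LPS (SD, n = 3).

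Receptors for TRAIL in the mouse are the death receptor encoded by Tnfrsf10b and the decoy receptors encoded by Tnfrsf22 and Tnfrsf23. Tnfrsf10b had 1, 0 and 1 counts in control and 0, 2 and 0 counts in LPS libraries, so that a change was not detectable at this depth. Tnfrsf23 went from 24.3 ± 2.14 to 31.5 ± 2.27 CPM (SD, n = 3), and its log2 ratio was 0.37 (SE 0.09, adjusted p = 0.00376 in edgeR). Tnfrsf22, beside it, had a log2 fold change of 0.20 (95% confidence interval -0.01 to 0.42, edgeR adjusted p = 0.13) and was not called. The related Tnfrsf26 of the same cluster rose by 0.36 (SE 0.07, adjusted p = 7.9e-04 in edgeR). Reads of these related genes could be divided between them by the counting of the authors.

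Tnfsf13b (ENSMUSG00000031497), at chr8:10006467-10039072 on the plus strand, encodes BAFF, a survival factor for B cells made by myeloid cells. Its level was 42.2, 43.1 and 41.6 CPM in control and 50.3, 48.1 and 53.5 CPM in LPS libraries. The groups did not overlap, but the distance was small. The log2 fold change was 0.26 (SE 0.06, adjusted p = 0.00396 in edgeR; DESeq2 adjusted p = 0.0117). The call was lost with total counts alone as the scaling, at 0.16 (edgeR adjusted p = 0.0508). It was also lost without the libraries with hepatocyte transcripts, at 0.26 (edgeR adjusted p = 0.0566), and without those with fibroblast transcripts, at 0.23 (edgeR adjusted p = 0.227). The gene Gm44789 on the other strand overlaps Tnfsf13b without sharing exon bases.

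Tnfsf13 (ENSMUSG00000089669), at chr11:69682846-69685784 on the minus strand, encodes APRIL, a relative of BAFF that also acts on B cells and plasma cells. It had 11, 12 and 27 counts in control and 10, 13 and 13 counts in LPS libraries. Control replicate 3 stood apart and the other libraries overlapped. The log2 fold change was -0.33 (95% confidence interval -1.22 to 0.56, edgeR adjusted p = 0.593), and it was 0.15 without control replicate 3, 0.20 without the libraries with hepatocyte transcripts and 0.21 without those with fibroblast transcripts, so that not even a direction can be given. Tnfrsf13c, which encodes the BAFF receptor, and Tnfrsf17, which encodes BCMA, a receptor of both ligands, had at most 1 count in a library. Tnfrsf13b, which encodes TACI, the other receptor that both bind, went from 5.83 ± 0.162 to 4.17 ± 0.546 CPM (SD, n = 3), and its log2 ratio was -0.48 (SE 0.16, adjusted p = 0.0341 in edgeR). This call was kept in 1 of the 6 fits that left out a library, with changes from -0.59 to -0.40, and DESeq2 did not make it (adjusted p = 0.121).

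Tnfsf12 (ENSMUSG00000097328), at chr11:69686250-69695849 on the minus strand and 465 bases from Tnfsf13, encodes TWEAK. It had 7, 18 and 9 counts in control and 10, 4 and 6 counts in LPS libraries, with the groups overlapping. It did not pass the filter, and none of the 8 other fits that tested it called it. In GENCODE M21, whose exon lengths equal those of the table for all 10 members, 48.3% of its exon bases and 60.0% of those of Tnfsf13 also belong to Tnfsfm13, a gene that joins both. Tnfsfm13 itself had at most 4 counts in a library. The antisense gene Tnfsf13os, with 2 to 7 counts in a library, shares 13.5% of the exon bases of Tnfsf13 and none of those of Tnfsf12. How reads in shared bases were assigned, and whether strand was used, is not given in the sources used here, so the levels of Tnfsf12 and Tnfsf13 are uncertain. Tnfrsf12a (ENSMUSG00000023905), at chr17:23675445-23677468 on the minus strand, encodes Fn14, the receptor of TWEAK. Its level was 39.3, 33.1 and 37.5 CPM in control and 37.7, 37.0 and 38.1 CPM in LPS libraries, and the LPS libraries lay within the range of the control libraries. The fitted change of 0.04 on the log2 scale (95% confidence interval -0.12 to 0.20, edgeR adjusted p = 0.731) turned to -0.010 with upper quartile normalization, -0.060 with total counts alone, -0.036 without control replicate 2 and -0.061 without the libraries with hepatocyte transcripts.

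Ltbr (ENSMUSG00000030339), at chr6:125306571-125313885 on the minus strand and 35476 bases from Tnfrsf1a, encodes the lymphotoxin β receptor, which leads to the non-canonical NF-κB pathway. Its level was 82.2, 74.1 and 74.6 CPM in control and 80.8, 76.3 and 76.8 CPM in LPS libraries. The groups overlapped throughout. Likewise a log2 change of 0.02 (95% confidence interval -0.10 to 0.13, edgeR adjusted p = 0.818) turned to -0.029 with upper quartile normalization, -0.079 with total counts alone and -0.074 without the libraries with hepatocyte transcripts, and was also below 0 in 3 of the 6 fits that left out a library. Beside Lta and Ltb, its ligands include LIGHT, encoded by Tnfsf14. Tnfsf14 had 16, 11 and 12 counts in control and 26, 17 and 30 counts in LPS libraries. Its log2 fold change was 1.03 (SE 0.36, adjusted p = 0.0379 in edgeR). That call was kept in 2 of the 6 fits that left out a library, with changes from 0.87 to 1.24, and DESeq2 did not make it (adjusted p = 0.137).

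Tnfsf9 (ENSMUSG00000035678), at chr17:57105325-57107757 on the plus strand, encodes 4-1BBL, a costimulatory ligand for T cells. Its level was 10.1, 10.7 and 8.92 CPM in control and 9.37, 5.79 and 8.52 CPM in LPS libraries. LPS replicate 2 was lowest, and LPS replicate 1 lay above control replicate 3. Its log2 fold change was -0.33 (95% confidence interval -0.68 to 0.02, edgeR adjusted p = 0.135), and -0.15 without LPS replicate 2. With total counts alone it was -0.43 (edgeR adjusted p = 0.0499). The lincRNA Gm11110 on the other strand shares 14.9% of the exon bases of Tnfsf9 and had 41 to 76 counts in a library. Since the use of strand in counting is not given in the sources used here, reads of both cannot be told apart there. Tnfrsf9, which encodes the receptor 4-1BB, had 10, 7 and 5 counts in control and 60, 58 and 54 counts in LPS libraries. It rose by 3.08 (SE 0.32, adjusted p = 2.5e-06 in edgeR), and passed the filter only through its LPS libraries.

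Levels of different genes were compared per length, in FPKM. In control cells the receptors came first, with Tnfrsf1a at 51.7 ± 1.54, Ltbr at 32.7 ± 1.92, Tnfrsf12a at 18.9 ± 1.65 and Tnfrsf1b at 14.98 ± 0.346 FPKM (SD, n = 3). Tnf followed at 9.64 ± 0.92, Tnfsf9 at 7.69 ± 0.707 and Tnfsf13b at 6.16 ± 0.106 FPKM. Tnfsf13, Tnfsf12 and Tnfsf10 were below 1 FPKM, and only the ranges of Tnfsf13 and Tnfsf12 overlapped between neighbors in this order. With LPS, Tnf led at 142 ± 2.65 FPKM, before Tnfrsf1b at 125 ± 2.85 and Tnfrsf1a at 56.3 ± 3.39 FPKM. The neighbors whose ranges overlapped with LPS were Tnfsf13b and Tnfsf9, and again Tnfsf13 and Tnfsf12.

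Over the 18 ligand genes of the family, the summed level went from 24.3 to 26.2 FPKM in control libraries to between 155 and 163 FPKM in LPS libraries. Tnf made up 37.7% ± 2.42 of that sum in control and 89.3% ± 1.11 with LPS (SD, n = 3). Tnfsf9 held 30.2% ± 3.21 and then 3.84% ± 0.861, and Tnfsf13b 24.2% ± 1.06 and then 4.64% ± 0.135. Yet Tnfsf9 was not called and Tnfsf13b was called higher, since a share also falls when the sum grows. Over the 28 receptor genes the sum went from between 172 and 174 FPKM to between 317 and 332 FPKM. The share of Tnfrsf1b was 8.66% ± 0.177 in control and 38.3% ± 1.14 with LPS, while that of Tnfrsf1a was 29.9% ± 0.922 and 17.3% ± 0.622. Fas held 2.71% ± 0.271 and 9.91% ± 0.407.

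**Figure D3:**
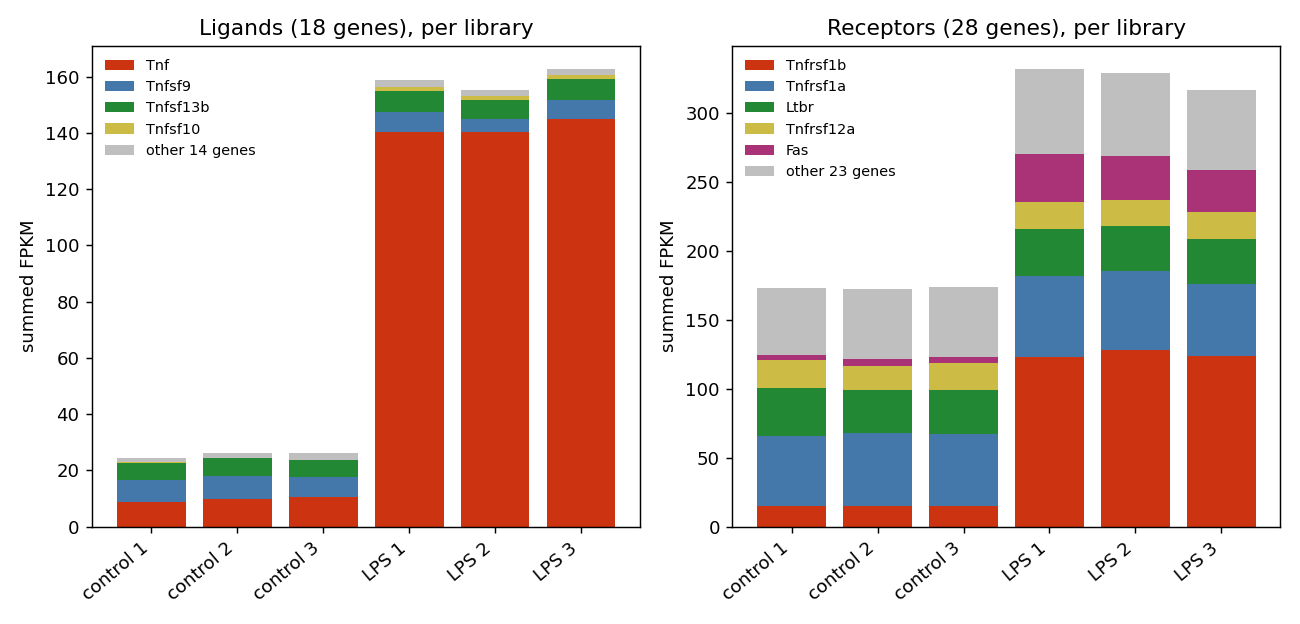
Summed FPKM of all 18 ligand genes (left) and all 28 receptor genes (right) in each library, stacked by gene. The growth of the ligand bars with LPS is almost all Tnf, and that of the receptor bars is mostly Tnfrsf1b and Fas.

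Of the other 36 genes of the family, 12 passed the filter, 7 were called higher and 2 lower (18.7% and 15.7% of all tested genes), and 17 had at most 3 counts in every library. Tnfrsf9 and Tnfrsf8 passed only through their LPS libraries, since 2 and 1 of their 3 control libraries lay under the filter, so that these counts lean toward higher calls and are no evidence about the family. Fas, the receptor for FasL, was at 7.47, 8.83 and 9.03 CPM in control and 62.0, 57.8 and 54.7 CPM with LPS, and rose by 2.78 (SE 0.09, adjusted p = 3.6e-12 in edgeR). Its ligand gene Fasl was at 0 counts in every library. Cd40, a receptor through which T cells activate myeloid cells, was at 36, 57 and 78 counts in control and 314, 294 and 253 counts with LPS, and rose by 2.47 (SE 0.18, adjusted p = 6.4e-08 in edgeR). Its ligand gene Cd40lg was at or under 2 counts. Tnfrsf8 had 14, 10 and 24 counts against 36, 42 and 53, and rose by 1.58 (SE 0.32, adjusted p = 0.00147 in edgeR). Together with Tnfrsf9, these were the 4 DEG among the other genes of the family, of which Tnfrsf8 fell under 1.5 with total counts alone, at 1.48, and reached 1.33 to 1.95 when single libraries were left out. Tnfrsf21, which encodes death receptor 6, changed by -0.27 on the log2 scale (SE 0.09, adjusted p = 0.0292 in edgeR), a call kept in 2 of the 6 fits that left out a library, with changes from -0.35 to -0.21, and not made by DESeq2 (adjusted p = 0.0669). Tnfrsf11a, which encodes RANK, and Relt were not called, at -0.04 (95% confidence interval -0.17 to 0.09) and -0.01 (-0.18 to 0.15). Leaving out the libraries with fibroblast transcripts, or those with hepatocyte transcripts, left 1 control library each time. Fewer of these genes were then called in each direction, as were fewer of all tested genes.

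**Figure D4:**
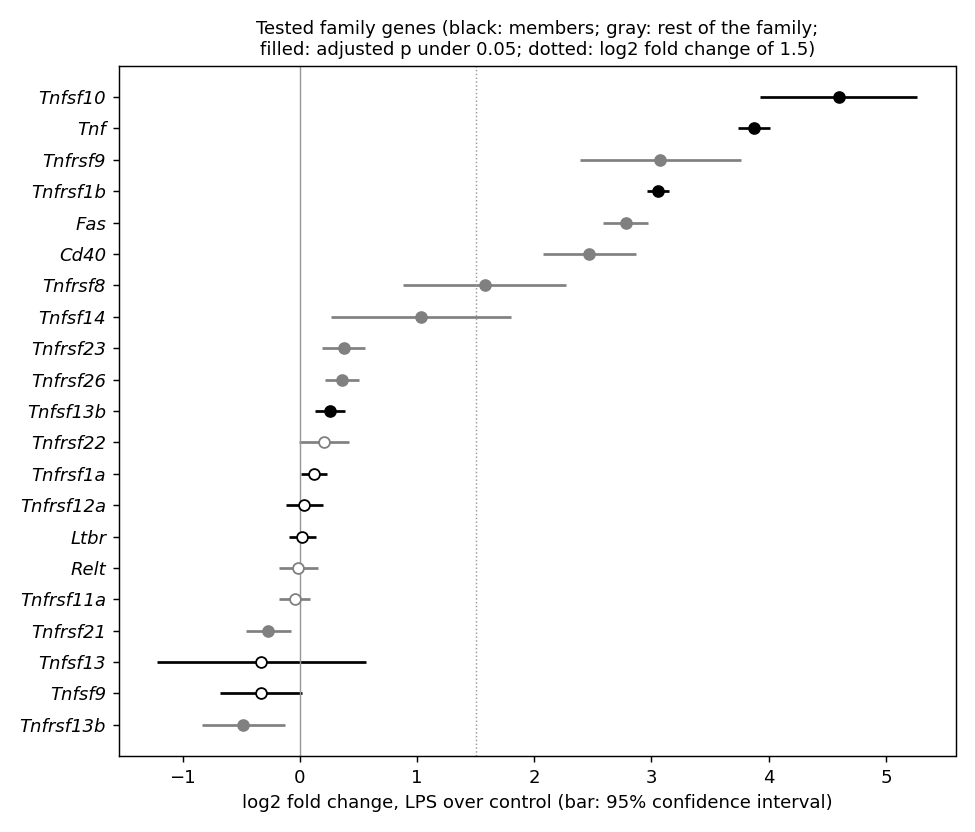
Log2 fold change of the 21 tested genes of the family, LPS over control, with 95% confidence intervals; black marks the members, gray the rest of the family, and filled points an adjusted p under 0.05. Tnfsf10, Tnf, Tnfrsf9, Tnfrsf1b, Fas and Cd40 lie well above 1.5, and Tnfrsf1a, Tnfrsf12a and Ltbr lie close to 0.

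Many ligands of this family are made as membrane proteins, and some of them are cleaved to a soluble form. ADAM17 is the protease that sheds TNF and both of its receptors, and the inactive rhomboids of Rhbdf1 and Rhbdf2 bring it to the cell surface. Of 8 processing genes, all tested, 5 were called higher and 2 lower, with a median log2 fold change of 0.30, where 18.7% and 15.7% of all tested genes were called. With total counts alone 3 were called higher and 2 lower, where 1520 and 3342 of all 12296 tested genes were called. Without the libraries with fibroblast transcripts fewer were called in each direction, and without those with hepatocyte transcripts fewer were called lower. Each omission left 1 control library, and fewer of all tested genes were then called in each direction. Rhbdf2 changed most, from 42.2 ± 1.65 to 101 ± 6.23 CPM (SD, n = 3), by 1.26 (SE 0.06, adjusted p = 2.6e-10 in edgeR). Rhbdf1 had a change of 0.40 (SE 0.14, adjusted p = 0.0431 in edgeR), kept in 1 of the 6 fits that left out a library, with changes from 0.27 to 0.50. Adam17 was at 226, 233 and 232 CPM in control and 262, 276 and 255 CPM with LPS, a change of 0.20 (SE 0.04, adjusted p = 0.00259 in edgeR) that was not called with total counts alone, at 0.10 (edgeR adjusted p = 0.0811). Adam10, a related protease, fell by 0.36 on the log2 scale (SE 0.04, adjusted p = 5.9e-06 in edgeR). Frmd8, which stabilizes the rhomboid complex and is named after its value was seen, fell by 0.22 (SE 0.05, adjusted p = 0.00535 in edgeR). Furin, which cleaves the precursors of BAFF, APRIL and TWEAK, rose by 0.47 (SE 0.04, adjusted p = 8.9e-07 in edgeR). Sppl2a, an intramembrane protease that acts on the remaining stub of TNF, rose by 0.43 (SE 0.04, adjusted p = 2.1e-06 in edgeR).

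Of the 28 genes of the complexes that form on these receptors, all tested, 12 were called higher and 2 lower, against 18.7% and 15.7% of all tested genes, and the median was 0.15. Traf1, an adaptor that binds TNFR2 with TRAF2, had 44, 29 and 44 counts in control and 509, 547 and 550 counts in LPS libraries, and rose by 3.91 (SE 0.13, adjusted p = 5.2e-12 in edgeR). Tnfaip3, which encodes the ubiquitin-editing inhibitor A20, rose from 19.6 ± 1.41 to 99.2 ± 3.66 CPM (SD, n = 3), by 2.34 (SE 0.06, adjusted p = 5.7e-13 in edgeR). Its partner Tnip1 rose by 1.43, Cflar, the inhibitor of caspase-8, by 0.85, and Birc3, the ubiquitin ligase cIAP2, by 0.82, with edgeR adjusted p of 3.6e-12, 1.8e-09 and 1.2e-06. Traf2 rose by 0.38 (SE 0.08, adjusted p = 0.00121 in edgeR). Map3k5 and Map3k14, kinases that lead to JNK and p38 and to non-canonical NF-κB, were the 2 that fell, by 0.63 and 0.37 on the log2 scale (edgeR adjusted p of 0.00726 and 0.00148), and are named after their values were seen. Tradd, at 0.13 (95% confidence interval -0.05 to 0.32), and Ripk1, at -0.04 (-0.15 to 0.06), were not called. With total counts alone 10 of the 28 were called higher and 8 lower, where 1520 and 3342 of all 12296 tested genes were called. Leaving out the libraries with fibroblast transcripts left 1 control library. Fewer of the 28 were then called in each direction, as were fewer of all tested genes.

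Of 12 genes that NF-κB is known to induce, 9 were tested and all 9 were called higher, as were 18.7% of all tested genes, with a median of 1.48. Without the libraries with fibroblast transcripts, which left 1 control library, fewer were called higher, as were fewer of all tested genes. Cxcl2 rose by 6.60, Ccl2 by 1.73, Nfkbia by 1.67, Sod2 by 1.48 and Nfkb2 by 1.48, with edgeR adjusted p between 1.1e-15 and 2.2e-11. Vcam1, Cxcl1 and Bcl2a1a had at most 1 count in a library. These genes respond to LPS as well as to TNF, and both routes cannot be told apart here.

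**Figure D5:**
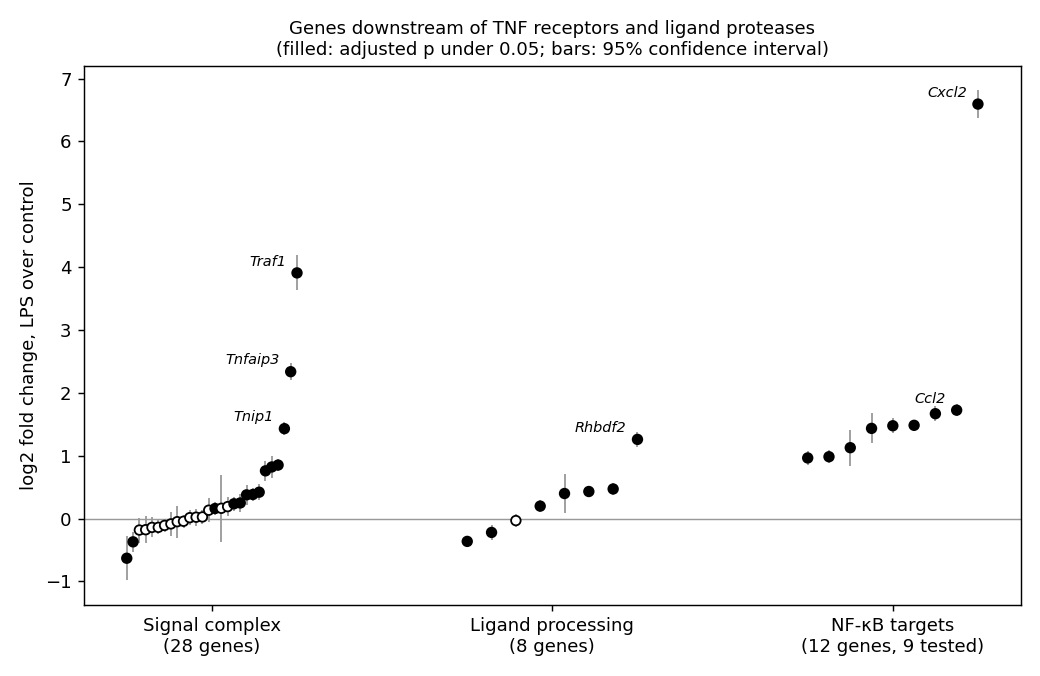
Log2 fold change of the tested genes of the receptor complexes, of ligand processing and of the NF-κB target list, each point a gene with its 95% confidence interval, filled where the adjusted p is under 0.05. Traf1 at 3.91, Tnfaip3 at 2.34, Rhbdf2 at 1.26 and Cxcl2 at 6.60 stand at the top of their lists.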

How the data were processed

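RNA of 6 N9 samples was sequenced and processed by Novogene for the study. The authors deposited read counts per gene, raw and not pooled, made per the labels with featureCounts version 1.5.0-p3 on mm10. The aligner, strand setting and annotation are not given in the sources used here. A table of the authors' own comparison was not used.

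Counts were tested with edgeR version 4.0.16 under R version 4.3.3: quasi-likelihood test, LPS against control, no replicate term, TMM normalization, filterByExpr by group, a prior count of 0.125, and Benjamini-Hochberg adjustment over 12296 genes. The standard error is the log2 fold change over the square root of F. No count lacked a gene name. The exact permutation test on ratios used Python version 3.11.15. Genes outside the members were named by a rule: every other ligand or receptor that passed the filter, the 5 largest changes with an adjusted p under 0.05 in each other list, Tradd, Ripk1, Traf2 and Adam17, the 5 genes nearest to Tnf, and genes overlapping a member. Partner genes below the filter, Frmd8, Map3k5 and Map3k14 were named in addition, with their values seen. The members and lists were chosen with earlier results of these data known, and no list is independent evidence. The fit was tested on simulated data. Every pair of libraries in a group differed by more than sampling noise (chi-square per gene 3.61 to 7.82). Alternatives were DESeq2 version 1.42.0, RLE and upper quartile normalization, no filter, a mean of at least 10 counts, robust dispersion, a prior count of 2, a replicate block, total counts for FPKM, 0.5 added to each count for ratios and each library left out. Total counts alone as scaling, and leaving out 2 or 3 libraries by marker counts, were added after seeing the data.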

Additional observations from a re-analysis of the deposited data

How the results depend on the processing

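For the 9 tested members, 135 of 153 refitted log2 fold changes kept direction and side of the threshold. The count of members called higher lay from 3 to 5, that of DEG was 3 in every fit, and that of members called lower was 1 with total counts alone and otherwise 0. Same-numbered control and LPS libraries deviated together weakly or not at all (correlations 0.136, 0.0588 and -0.00415), and not every library correlated best with its own number. With 3 libraries in a group this cannot settle whether numbers pair samples, and the main fit used no pairing. With a replicate block, calls over all genes went from 4221 to 4474, the log2 fold change of Tnf was 3.88 and that of Tnfrsf1b 3.06, and the members called stayed 4 higher and 0 lower. Leaving out libraries one at a time moved Tnfsf13 from -0.54 to 0.15, Tnfrsf1a from 0.088 to 0.17, Tnfrsf12a from -0.036 to 0.079 and Ltbr from -0.014 to 0.057, and the count of other family genes called lower from 0 to 2. DESeq2 called 0 other family genes lower. Upper quartile normalization gave -0.010 for Tnfrsf12a and -0.029 for Ltbr. It called 4 receptor complex genes lower, and 2497 of all tested genes. Total counts alone gave -0.43 for Tnfsf9, 0.16 for Tnfsf13b, -0.060 for Tnfrsf12a and -0.079 for Ltbr. With it 8 receptor complex genes were called lower and 3 processing genes higher, where 3342 of all tested genes were called lower and 1520 higher. This scaling moved the median of all genes to -0.095. Without both control libraries with over 100 Alb counts, Tnfsf13 was 0.20, Tnfsf13b 0.26, Tnfrsf12a -0.061 and Ltbr -0.074. Fewer other family and processing genes were called lower in that fit, as were fewer of all tested genes. Without the 3 libraries with over 30 Col1a2 counts, Tnfsf13 was 0.21 and Tnfsf13b 0.23, with 3 other family genes, 7 receptor complex genes and 3 processing genes called higher, and 0, 0 and 1 called lower, and 8 NF-κB targets called higher. These 2 kinds of omission each left 1 control library, which held transcripts of the other marker list and was assumed to vary like the others. Fits with fewer libraries have fewer degrees of freedom. For the other changes the cause was not tested. Depth limits Tnfsf10 in control cells, Tnfsf12, Tnfsf13 and Tnfsf14, at most 30 counts in each library concerned.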
